A study of Mus musculus with 6 samples.

Results

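The DNA methylation of CpG sites assigned to 10 genes of the pluripotency network was read in cultured mouse spermatogonia. The genes are *Pou5f1*, *Nanog*, *Sox2*, *Klf4*, *Zfp42*, *Esrrb*, *Tdgf1*, *Lin28a*, *Utf1*, and *Dppa3*, and a site belonged to a gene if the deposited table named that gene as the one with the closest transcription start site (TSS), at any distance. All 10 genes were found, with 1230 of the 2268080 CpG sites of the table. Of these, 411 sites had at least 10 reads in every sample, out of 681804 such sites in all, and 561 had at least 5.

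GS cells are spermatogonia grown in culture, with stem cells among them. The series compared Space GS cells, frozen for 6 months on the International Space Station (ISS), with Ground GS cells, frozen for 6 months on Earth, with 3 biological replicates in each group. All 6 samples have the genotype DBA/Tg14(act-EGFP-OsbY01), a transgenic line with EGFP under an actin promoter that was made in C57BL6 and bred into DBA/2, so none is free of the transgene. Per the study's methods, GS cells grow on mouse embryonic fibroblasts with growth factors, and the DNA was taken after thawing and passage, so the frozen state itself was not measured. DNA methylation was read by reduced representation bisulfite sequencing (RRBS), in which DNA is cut at CCGG, CpG-rich fragments are kept, and bisulfite converts unmethylated but not methylated cytosines. A level is the percent of the reads at a site, or summed over several sites, that were methylated.

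Pluripotency is the ability of a cell to form all tissues of the body. It is held by a small set of transcription factors that bind at each other's genes, with *Pou5f1* (Oct4), *Sox2*, and *Nanog* at the centre. Germ cells share parts of this network, and cultured spermatogonia can on occasion convert to cells like embryonic stem cells, although they are not pluripotent themselves. Methylation of CpG-rich promoters generally goes with a silent gene, while most CpG sites away from promoters are methylated in mammalian cells.

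The reads summed over sites were 28535973 to 33743845 per sample, and the median coverage of a covered site was 27 to 32 reads. The promoters of germline genes that are methylated in somatic cells were read as a check of the cell type. Of 14 such genes 11 were measured and all 11 were below 10%, with a list mean of 2.80% to 3.79% in Space and 1.56% to 4.16% in Ground GS cells. Of 10 imprinted genes with a promoter methylated on the maternal copy in somatic cells such as the feeder, 7 were measured and all 7 were below 10%, with a list mean of 1.62% to 1.96% and 1.45% to 3.01%. Over all genes, 95.3% of 14373 promoters were below 10%, and 11 of 11 and 7 of 7 are near that share. Of 6 fibroblast genes only *Twist1* had enough promoter sites, with 0.460% to 0.942% in Space and 1.49% to 2.00% in Ground GS cells.

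Promoter windows of 4 of the genes are shown because they span the range of CpG content in the group. RefSeq has a window from 250 bases before to 50 after the start for 9 of the 10 genes, and *Dppa3* was not in this table. The sequences are from GRCm38.p6, 5′ to 3′ on the strand of the gene, with each CG in capitals. They lie at chr6:122707239-122707538 (plus strand) for *Nanog*, chr17:35505782-35506081 (plus strand) for *Pou5f1*, chr8:43306960-43307259 (minus strand) for *Zfp42*, and chr4:55532426-55532725 (minus strand) for *Klf4*.
Nanog: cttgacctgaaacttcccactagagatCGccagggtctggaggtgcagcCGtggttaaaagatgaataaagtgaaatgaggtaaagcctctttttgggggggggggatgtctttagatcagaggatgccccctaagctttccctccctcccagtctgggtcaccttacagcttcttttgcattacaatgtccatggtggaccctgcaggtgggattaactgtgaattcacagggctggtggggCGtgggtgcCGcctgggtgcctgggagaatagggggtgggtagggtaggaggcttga
Pou5f1: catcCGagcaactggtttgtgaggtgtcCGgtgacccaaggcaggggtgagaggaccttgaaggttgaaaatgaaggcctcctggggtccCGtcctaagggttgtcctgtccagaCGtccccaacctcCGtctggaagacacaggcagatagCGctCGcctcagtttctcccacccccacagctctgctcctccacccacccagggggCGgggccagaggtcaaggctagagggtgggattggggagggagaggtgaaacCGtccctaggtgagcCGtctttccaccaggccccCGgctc
Zfp42: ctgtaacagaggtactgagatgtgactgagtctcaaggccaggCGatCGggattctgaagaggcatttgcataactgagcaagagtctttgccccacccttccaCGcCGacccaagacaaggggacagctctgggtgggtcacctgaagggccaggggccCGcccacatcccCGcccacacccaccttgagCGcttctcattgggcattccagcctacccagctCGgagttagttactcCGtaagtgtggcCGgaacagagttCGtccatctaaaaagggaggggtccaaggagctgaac
Klf4: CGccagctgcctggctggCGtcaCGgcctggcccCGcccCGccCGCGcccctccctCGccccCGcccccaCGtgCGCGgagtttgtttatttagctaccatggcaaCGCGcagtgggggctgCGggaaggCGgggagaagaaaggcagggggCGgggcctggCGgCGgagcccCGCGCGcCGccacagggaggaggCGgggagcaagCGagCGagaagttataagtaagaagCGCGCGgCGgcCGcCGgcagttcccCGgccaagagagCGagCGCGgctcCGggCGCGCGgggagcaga

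The *Nanog* window holds 4 CG, fewer than the median of 7 over 32851 promoter windows, and no CCGG, the site at which RRBS fragments begin. *Pou5f1* and *Zfp42* each have 11 CG, with 2 and 1 CCGG, and *Klf4* has 40 CG and 3 CCGG, more CG than 96.1% of windows. CCGG, which reads the same on both strands and contains CG, was present in 52.8% of all windows. The CpG sites of the deposited table are on mm39, the build named in the submitters' processing notes, so they were placed by their distance from the TSS of the deposited table and not on these sequences. In the same window around that TSS, the table had 19 sites for *Klf4*, 10 for *Pou5f1*, 5 for *Zfp42*, and 0 for *Nanog*. Of these, 5 sites of *Klf4* and 0 of *Pou5f1* and *Zfp42* had at least 10 reads in every sample. The *Zfp42* window had 20 reads over all samples and sites, so its level was not measured in the main set, nor was that of *Pou5f1*. Exons and introns could not be assigned, since the annotation used here is of GRCm38.

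Promoter sites, those no more than 1000 bp from the TSS, were almost all low when the covered sites of these genes were counted together. Of 205 covered promoter sites, 201 had a mean level below 10% over the 6 samples, or 98.0%, against 98.7% of 390568 promoter sites of all genes. The exceptions were 1 site of *Nanog* and 3 sites of *Zfp42*. The share rests on *Sox2*, *Klf4*, and *Utf1*, which hold 82, 51, and 47 of the 205 sites. *Nanog* has 1 covered promoter site, and *Esrrb* and *Dppa3* have 0. At the 206 sites farther out, called distal here, 144 were below 10%, 22 were between 10% and 80%, and 40 were above 80%. These distal shares were 69.9%, 10.7%, and 19.4%, where all genes had 48.8%, 12.4%, and 38.9%, so that a larger share of the covered distal sites was low in the 10 genes. This share rests on *Klf4*, *Sox2*, and *Dppa3*, which hold 63, 44, and 16 of the 144 low distal sites. Neighboring sites often lie on the same reads, and the 411 sites form 150 groups of equal coverage, so sites are not independent values.

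**Figure D1:**
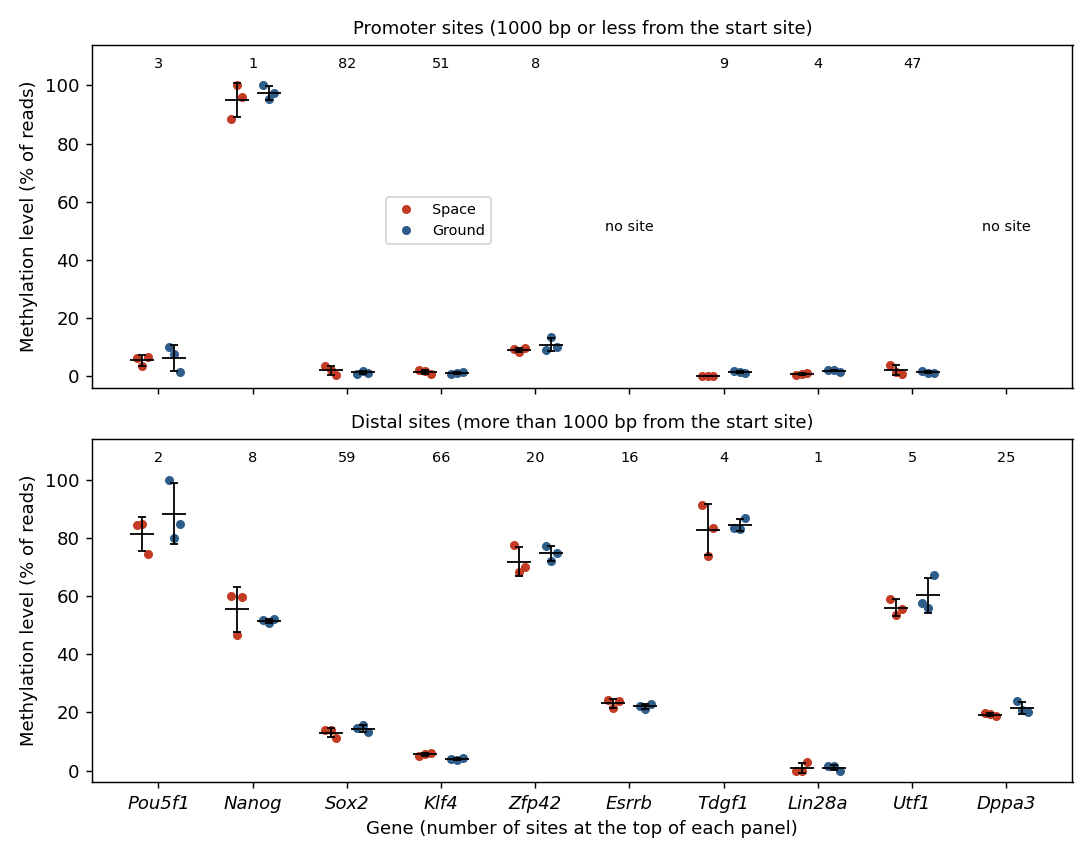
Methylation level (percent of methylated reads, summed over sites read 10 times or more in each sample) of promoter and distal sites of each gene in 3 Space and 3 Ground replicates, with the mean and SD in black and the number of sites above. Promoters of 7 genes lie near the bottom in every sample, the single *Nanog* site lies at 88.5% to 100%, and distal levels range from 0% for *Lin28a* to 100% for *Pou5f1*.

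*Pou5f1* (chromosome 17, TSS at 35816915, plus strand) encodes Oct4, the factor without which the pluripotent cells of the embryo do not form. Its 3 covered promoter sites, at 109 to 587 bp after the TSS, had levels of 6.21%, 3.40%, and 6.71% in the Space replicates and 10.2%, 7.50%, and 1.34% in the Ground replicates, in the order of their numbers. The Ground values enclosed the Space values, and the means were 5.44% ± 1.78 and 6.36% ± 4.56 (SD, n = 3, exact permutation p = 0.80, two-sided). Its 2 covered distal sites, at 1248 and 1259 bp, were methylated at 84.4%, 84.9%, and 74.5% in Space and 100%, 80%, and 84.7% in Ground GS cells. Summed over sites, the level was thus at most 10.2% in the promoter range and at least 74.5% at the distal sites. Over all reads at sites with any coverage, 25 promoter sites gave 1.18% to 7.36% and 17 distal sites gave 83.2% to 94.6%, so the step was also there with the sites of low coverage included. The promoter level was higher than that of 94.1% of 14373 genes. The genes with the most similar promoter levels over the 6 samples were *Papolb*, *Itgal*, and *Ccdc113*, with a mean absolute difference of 0.997, 1.02, and 1.51 percentage points.

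*Nanog* (chromosome 6, TSS at 122684448, plus strand), a homeodomain factor of naive pluripotency, had the one covered promoter site above 80%. It was the only promoter site of this gene in the table, at 603 bp after the TSS, with 88.5%, 100%, and 96.2% in Space and 100%, 95.2%, and 97.2% in Ground GS cells. Over the 6 samples, 142 of 148 reads were methylated, or 95.9% (95% Wilson interval, 91.4% to 98.1%). This interval, like the limits given for levels of 0% elsewhere, covers counting error only, since no molecular identifiers are described and reads may be copies of 1 molecule. The site lies outside the RefSeq window, so the level at the *Nanog* start itself was not measured.

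The 8 covered distal sites of *Nanog* fell into separate blocks. A block is a run of neighboring covered sites in 1 level class (below 10%, 10% to 80%, or above 80%) with gaps of at most 1000 bp. The 4 sites at 22448 to 22550 bp after the TSS were at 93.8% to 96.9% in every sample, while 3 sites at 4614 to 4516 bp before it were at 4.35%, 3.13%, and 7.02% in Space and 2.67%, 0%, and 0% in Ground GS cells. The Space values of the latter block were all above the Ground values, by 3.94 percentage points on average (exact permutation p = 0.10, the smallest that 3 against 3 samples allow). Its sites had 19 to 32 reads each, so a level of 0% there is coarse. The block is 1 of 51 in the 10 genes and was named after its values were seen. Blocks without overlap were also found at *Klf4* (10 to 1944 bp and 17258 to 17624 bp), with Space higher, and at *Tdgf1* and *Dppa3*, with Space lower. No share of such blocks over all genes is given here, so they are a description only. With at least 5 reads, 6 sites at 37283 to 37049 bp before the TSS were at 0%, 16.7%, and 47.9% in Space and 8%, 2.78%, and 1.47% in Ground GS cells, so that Space GS cells 3 stood apart at 8 to 12 reads per site. The distal level of *Nanog* as a whole was 55.4% ± 7.66 in Space and 51.4% ± 0.742 in Ground GS cells (SD, n = 3).

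*Sox2* (chromosome 3, TSS at 34704554, plus strand), the partner of Oct4 on DNA, had the most covered sites. Its 82 promoter sites were at 3.67%, 2.06%, and 0.352% in Space and 0.894%, 1.85%, and 1.31% in Ground GS cells, with overlapping groups. The low block ran from 1566 bp before to 880 bp after the TSS, with 91 sites. Of 59 distal sites, 44 were below 10%, among them 14 sites at 13739 to 15004 bp, with 0.534% to 3.29%. Other blocks were partly or highly methylated. Among these, levels were 95.3% to 100% (4 sites, 18666 to 18616 bp before the TSS), 42.2% to 63.4% (4 sites, 6180 to 6274 bp after it), 51.9% to 75% (2 sites, 21139 to 21175 bp), and 94.4% to 100% (1 site, 22107 bp). The blocks from 6180 to 22107 bp had low sites on both sides, and the distal level of *Sox2* was 13.1% ± 1.58 in Space and 14.4% ± 1.26 in Ground GS cells (SD, n = 3).

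*Klf4* (chromosome 4, TSS at 55532466, minus strand) is a zinc finger factor that, with Oct4, Sox2, and c-Myc, reprograms fibroblasts. Its 51 promoter sites were at 2.24%, 1.78%, and 0.769% in Space and 0.816%, 1.24%, and 1.39% in Ground GS cells. The low block went on past the promoter range to 1944 bp after the TSS, with 88 sites. It ended at 3 sites at 2235 to 2644 bp, which had 56.1%, 58.6%, and 40.8% in Space and 48.5%, 48.3%, and 44.3% in Ground GS cells. Another 26 sites at 17258 to 17624 bp were again low, at 1.76%, 2.06%, and 2.64% in Space and 0.998%, 0.289%, and 0.384% in Ground GS cells.

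*Zfp42* (chromosome 8, TSS at 43760017, minus strand) encodes Rex1, a zinc finger protein used as a marker of naive embryonic stem cells. Its 8 promoter sites were at 9.52%, 8.29%, and 9.64% in Space and 9.15%, 13.4%, and 10% in Ground GS cells, higher than 95.3% of all promoters. Upstream, the level was lower closer to the TSS. The 3 sites at 906 to 685 bp before it were at 14.3% to 22.8%, the 5 sites at 581 to 496 bp before it at 0% to 7.78%, and the 6 sites at 1019 to 1115 bp after it at 0% in all 6 samples. The 6 sites share their reads, 10 to 20 per sample, which allow a level of up to 30% to 15%. The last block counts as distal by its distance. Farther out, 8 sites at 11072 to 11309 bp were at 89.9% to 94.4%, and 2 sites at 46428 to 46902 bp at 95.8% to 98.5%. The promoters most like *Zfp42* over the 6 samples were those of *Pcyt2*, *Gm17028*, and *Gm12111*, with a mean absolute difference of 1.24, 1.47, and 1.56 percentage points.

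*Esrrb* (chromosome 12, TSS at 86407891, plus strand), an orphan nuclear receptor of the naive network, had no promoter site with 5 reads in every sample. Over all reads at its 10 promoter sites, the level was 49.0%, 31.1%, and 59.1% in Space and 50%, 38.6%, and 20% in Ground GS cells, between the low promoters and the *Nanog* site. The groups overlapped. No site had more than 9 reads in a sample, and in Ground GS cells 3 none had more than 2, so these levels are coarse. Of its 16 covered distal sites, 10 at 41767 to 41981 bp after the TSS were at 0% to 2.16%, 1 at 34466 bp was at 25% to 66.7%, and the other 5 were above 80% in every sample. Its distal level of 23.1% ± 1.51 in Space and 22.1% ± 0.962 in Ground GS cells (SD, n = 3) is the mixture of these, and it depends on the coverage asked for. With at least 5 reads, 37 sites gave means of 46.8% and 44.0%, and over all reads 99 sites gave 54.7% and 55.4%.

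*Lin28a* (chromosome 4, TSS at 133746152, minus strand) encodes an RNA-binding protein that blocks the maturation of let-7 and is also made by undifferentiated spermatogonia. Its 4 promoter sites were at 0.413%, 0.847%, and 1.24% in Space and 2.20%, 2.08%, and 1.63% in Ground GS cells. All Space values were below all Ground values, by 1.14 percentage points (exact permutation p = 0.10). They come from 1, 2, and 3 methylated calls in Space and 4, 5, and 4 in Ground GS cells, summed over the sites. The order of the groups thus rests on few reads. Its single covered distal site, at 1281 bp before the TSS, was also low, at 0%, 0%, and 3.03% in Space and 1.54%, 1.56%, and 0% in Ground GS cells. Over all reads, 27 distal sites gave 24.8%, 24.2%, and 25.2% in Space and 21.99%, 15.5%, and 20.7% in Ground GS cells. Space was higher there without overlap (exact permutation p = 0.10), at sites of which only 1 had 10 reads in every sample.

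*Utf1* (chromosome 7, TSS at 139523702, plus strand), a chromatin-bound protein of embryonic stem cells and of undifferentiated spermatogonia, had 47 covered promoter sites, at 4.03%, 1.44%, and 0.714% in Space and 1.72%, 1.28%, and 1.13% in Ground GS cells. These sites lie 112 to 619 bp after the TSS. A site at 1909 bp was at 20.5%, 13.7%, and 18.2% in Space and 5%, 5%, and 19.4% in Ground GS cells. The 4 sites upstream, at 16226 to 6100 bp before the TSS, formed blocks at 80% to 100%.

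*Dppa3* (chromosome 6, TSS at 122603369, plus strand) encodes Stella, which protects the maternal genome from demethylation after fertilization. It had no promoter site with 5 reads in every sample. Over all reads at its 15 promoter sites, the level was 9.76%, 0%, and 0% in Space and 10%, 3.57%, and 0% in Ground GS cells. Since reads are counted at each site they span, the 3 values of 0% are limited by the most reads at any 1 site, 10, 16, and 9, which allow up to 30%, 18.8%, and 33.3%. Beyond the promoter range, 12 sites at 1269 to 2455 bp after the TSS were at 2.04% to 4.07%, 3 sites at 5969 to 6556 bp at 89.7% to 98.5%, and 4 sites at 36664 to 36741 bp at 0% to 4.03%. *Nanog* is the next of the 10 genes along this chromosome, and the last block lies in the interval between their start sites, as does the low *Nanog* site at 39882 bp before its TSS, at 5.26% to 12.5%.

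*Tdgf1* (chromosome 9, TSS at 110775226, minus strand), which encodes Cripto, the co-receptor for Nodal, had 9 covered promoter sites on 1 stretch, 584 to 438 bp before the TSS. No methylated read was seen there in Space GS cells. The sites share their reads, at most 17, 12, and 14 per site, which allow levels of up to 17.6%, 25%, and 21.4%. Ground GS cells had 1.75%, 1.49%, and 1.11%, from 3, 2, and 1 methylated calls summed over the sites, so the groups did not overlap (exact permutation p = 0.10), and the difference lay under the level that a count of 0 allows. With at least 5 reads, 23 promoter sites gave 0%, 0%, and 5.38% in Space and 1.94%, 0.512%, and 2.39% in Ground GS cells, which overlapped. Its 4 distal sites were at 91.2%, 73.7%, and 83.3% in Space and 83.3%, 83.0%, and 86.9% in Ground GS cells. Those at 4843 and 9794 bp after the TSS were at 94.9% to 100%, while the 2 at 2017 to 2004 bp before it were at 25% to 65.0%.

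**Figure D2:**
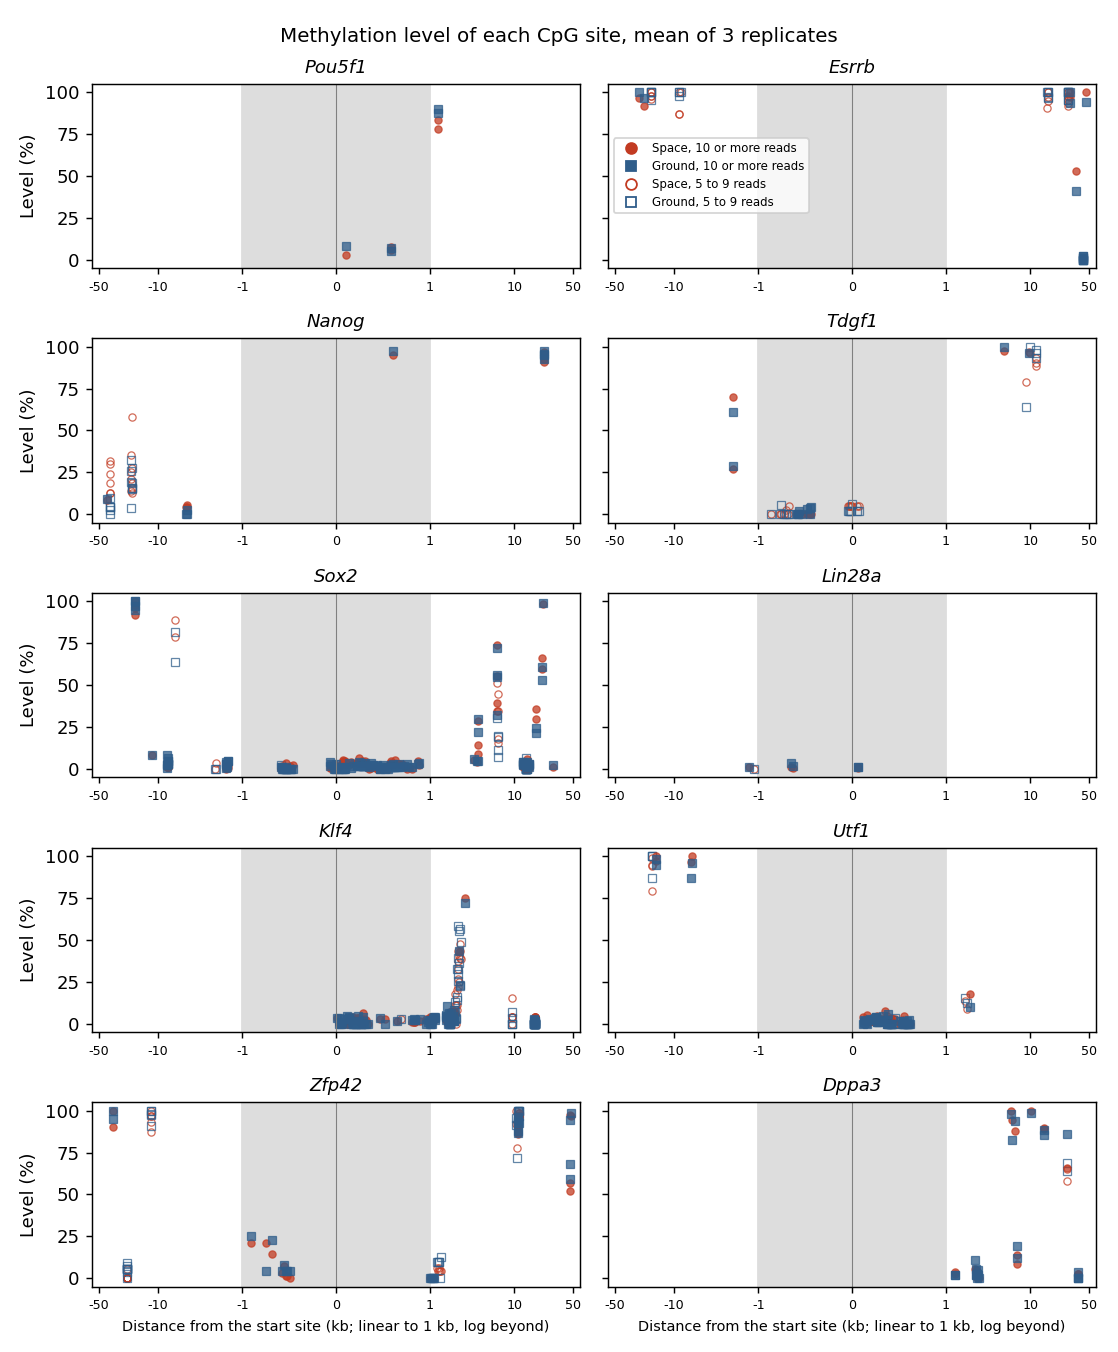
Mean methylation level of each CpG site in Space and Ground GS cells (percent, n = 3 replicates each) against its signed distance from the TSS in kb, positive downstream, on an axis that is linear to 1 kb and logarithmic beyond, with the promoter range shaded and sites with 5 to 9 reads as open symbols. Sites in the shaded range are low except that of *Nanog* and the 3 outer sites of *Zfp42*, and sites outside it lie mostly near 0% or near 100%. Space and Ground symbols are mostly close together. They lie more than 10 percentage points apart at 8 of the 206 distal sites with 10 or more reads (3.88%, against 4.38% for all genes). The same holds at 1 of the 205 promoter sites (0.488%, against 0.305%), that of *Zfp42* at 742 bp before the TSS, and at some open symbols.

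The step from promoter to distal sites was tested within each gene, on the log2 ratio of methylated to unmethylated reads in the same sample. 5 of the 10 genes had at least 3 promoter and 3 distal sites. In all 5 the distal level was higher in every sample. The mean difference over the 6 samples was 3.38 percentage points for *Klf4*, 12.1 for *Sox2*, 56.4 for *Utf1*, 63.2 for *Zfp42*, and 82.8 for *Tdgf1*, with adjusted p-values of 1.19e-04, 2.31e-06, 2.67e-09, 8.95e-09, and 7.14e-10 (limma, Benjamini-Hochberg adjustment over 8422 genes). A higher distal level was called in 89.3% of these 8422 genes, with a median difference of 55.2 percentage points, and 5 of 5 is near that share. The differences of *Klf4* and *Sox2* were larger than those of 13.8% and 23.1% of genes. For *Klf4*, 63 of the 66 distal sites were themselves below 10%, and the other 3, at 2235 to 2644 bp, were partly methylated. For *Zfp42*, when only sites within 10000 bp were taken as distal, the 6 sites at 0% remained and the difference turned to -10.004 percentage points (limma, adjusted p = 8.58e-07). Those 6 sites share their reads, 10 to 20 per sample, and the test counted each read at every site it spans. In single samples these reads allow a level of up to 30% to 15%, above the promoter level of 8.29% to 13.4%. The size of this p-value is therefore not reliable.

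**Figure D3:**
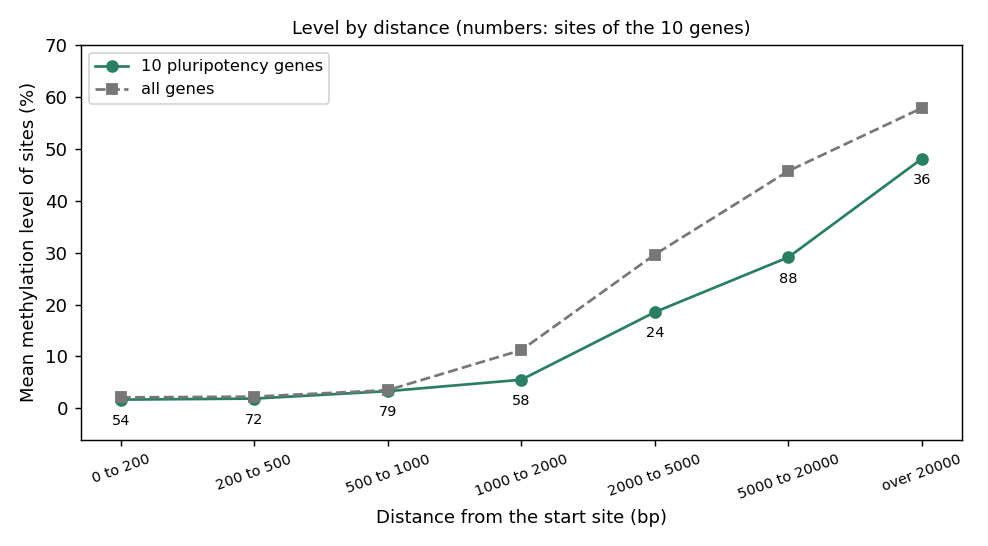
Mean level of covered CpG sites (percent, over the 6 samples) in 7 classes of distance from the TSS in bp, for the 10 pluripotency genes (circles, with the number of sites) and for all genes (squares). The mean of the 10 genes goes from 1.71% within 200 bp to 48.1% beyond 20000 bp, and that of all genes from 2.13% to 57.8%.

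By distance, sites of the 10 genes had mean levels of 1.71%, 1.90%, and 3.33% up to 200, 500, and 1000 bp, where all genes had 2.13%, 2.28%, and 3.52%. From 1000 to 2000 bp the means were 5.53% and 11.2%, from 2000 to 5000 bp 18.5% and 29.6%, and from 5000 to 20000 bp 29.1% and 45.7%. Few genes supply each class, 5 to 8 of the 10, so this is a description.

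The series asks whether storage in space changed these cells. None of the 10 genes differed between Space and Ground GS cells in the test across all genes. The promoters of 7 genes and the distal sites of 8 genes had the 3 sites needed. Adjusted p-values were 0.991 to 0.995 at promoters and 0.955 to 0.993 at distal sites (quasi-binomial test of the methylated share, with the spread between replicates moderated by limma). Over all genes, 0 of 14361 promoters and 0 of 17203 distal sets were called (0% in each), with 567 and 888 at an unadjusted p under 0.05, and edgeR and limma on log2 ratios called 0 as well. Of the 10 genes, 0 of 7 promoters and 1 of 8 distal sets, *Klf4*, had an unadjusted p under 0.05, where all genes had 3.95% and 5.16%.

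**Figure D4:**
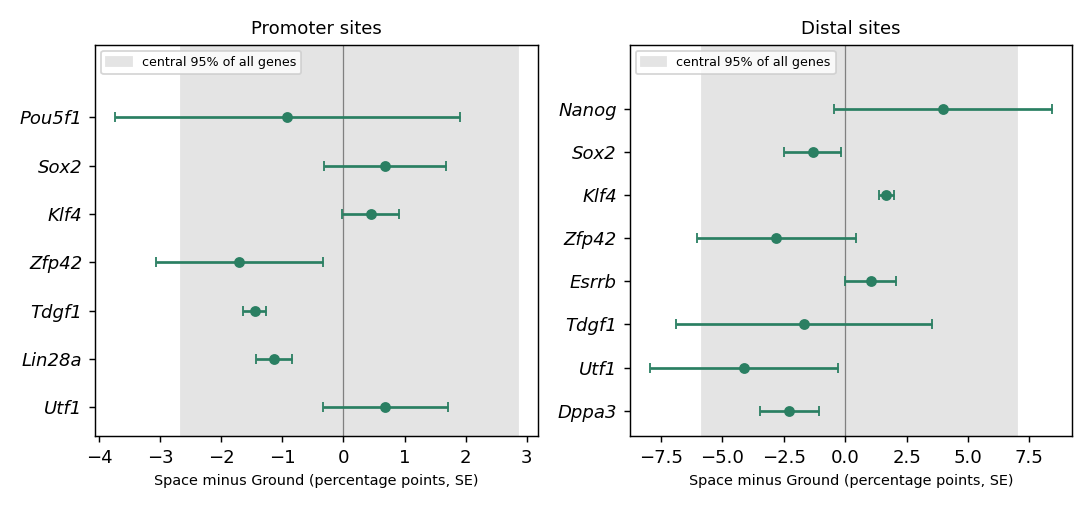
Space minus Ground difference of the methylation level in percentage points, with its SE over 3 replicates per group, at promoter sites of 7 genes and distal sites of 8 genes, and the central 95% of all genes in grey. All 15 points lie inside the grey range, from -1.71 to 0.685 at promoters and from -4.14 to 4.0 at distal sites.

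The distal sites of *Klf4* were at 5.16%, 5.55%, and 6.07% in Space and 3.89%, 3.62%, and 4.22% in Ground GS cells. Space was higher than Ground in all replicates, 5.59% ± 0.457 against 3.91% ± 0.298 (SD, n = 3, unadjusted p = 0.00484, adjusted p = 0.955 in the quasi-binomial test with limma). The range of adjusted p over the 14 alternatives with this test or another across genes was 0.641 to 0.999. With at least 5 reads per site, 90 sites gave 6.96% to 7.09% in Space and 5.61% to 7.66% in Ground GS cells, and the groups overlapped. They also overlapped over all reads (7.01% to 7.16% and 5.89% to 8.12%). With at least 20 reads, 22 sites gave 6.41% to 7.62% and 5.39% to 6.22%, again without overlap.

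The distal sites of *Dppa3* were at 19.7%, 19.3%, and 18.8% in Space and 23.8%, 20.8%, and 19.97% in Ground GS cells. Space was lower in all replicates, by 2.27 percentage points (adjusted p = 0.962 in the quasi-binomial test with limma). At sites with at least 20 reads the values were 10.2% to 13.7% and 11.5% to 13.1%, which overlapped. Groups without overlap were thus found at the promoters of *Tdgf1* and *Lin28a* and the distal sites of *Dppa3*, with Space lower, and at the distal sites of *Klf4*, with Space higher. At both promoters the order rests on few methylated calls. Over all genes, Space was lower without overlap in 3.86% of promoters and 3.88% of distal sets, and higher in 5.68% and 5.86%. The counts of 2 of 7 promoters and 1 of 8 distal sets lower, and 1 of 8 distal sets higher, are small and were not tested against these shares.

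The mean over the 8 genes with a promoter site was 14.5% ± 0.209 in Space and 15.2% ± 0.761 in Ground GS cells, and over the 10 genes with a distal site 40.9% ± 2.42 and 42.2% ± 1.62 (SD, n = 3). The differences of -0.753 and -1.25 percentage points are a description and were not tested. The promoter mean is raised by *Nanog*, which enters with its 1 methylated site. The step from promoter to distal sites did not pass the test between the groups in any of the 5 genes (adjusted p = 0.985 to 0.999, limma), nor in any of 8422 genes (0%), of which 406 had an unadjusted p under 0.05 (4.82%, against 0 of the 5).

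Single sites were tested where their mean level was 5% to 95%, which left 62 sites of the 10 genes among 92012. None was called among the 62 or the 92012 (0%), and 4 of the 62 had an unadjusted p under 0.05, or 4199 of all sites (4.56%). The site of *Zfp42* at 742 bp before the TSS (chr8:43760759 on mm39) was at 9.09%, 18.2%, and 35.7% in Space and 8.33%, 5%, and 0% in Ground GS cells (unadjusted p = 0.0211). The site of *Klf4* at 2256 bp (chr4:55530210) was at 62.1%, 39.1%, and 29.6% in Space and 20%, 22.7%, and 26.1% in Ground GS cells (unadjusted p = 0.0363). Space replicates were above all Ground replicates at both. A site of *Dppa3* at 26934 bp (chr6:122630303, unadjusted p = 0.0464) was at 66.7%, 53.8%, and 76.9% in Space and 88.2%, 80%, and 89.5% in Ground GS cells, with Space lower without overlap. The groups overlapped at a site of *Sox2* at 18069 bp (chr3:34722623, unadjusted p = 0.0433), with 46.9%, 39.5%, and 20.6% in Space and 13.3%, 25.6%, and 34.5% in Ground GS cells. They also overlapped at a site of *Dppa3* at 6089 bp (chr6:122609458, unadjusted p = 0.0584), with 87.5%, 95%, and 100% in Space and 79.2%, 75%, and 94.1% in Ground GS cells. The adjusted p-values of the 5 sites were all 0.989 in the quasi-binomial test with limma.

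Other genes of the pathway were read in 5 lists with 51 genes, all present in the table. Of these, 35 promoters could be tested, and all 35 were below 10%, where 95.3% of 14373 promoters of all genes were. Their median was 1.77%, where all genes had 1.82%. None differed between Space and Ground GS cells in the test across all genes (0 of 35, with 3 at an unadjusted p under 0.05, where all genes had 3.95%), nor did any of 41 distal sets (5 at an unadjusted p under 0.05, where all genes had 5.16%). Space minus Ground had a median of 0.360 percentage points at promoters and 0.886 at distal sites, where all genes had 0.0872 and 0.238. Distal levels had a median of 32.5%, against 66.1% over all genes. The step was called in 27 of 29 genes, always with the distal level higher, where 89.3% of all genes were called in that direction, and the exceptions were *Zic2* and *Mycn*, with differences of -0.609 and 0.524 percentage points (limma, adjusted p = 0.197 and 0.358).

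By role, 10 of 14 further naive transcription factors, 10 of 15 pluripotency-associated genes, 3 of 10 signal genes, 9 of 9 formative and primed genes, and 3 of 3 Myc genes had a testable promoter, with median levels of 1.71%, 1.87%, 1.61%, 1.78%, and 2.23%. The highest promoter levels were those of *Gdf3* (5.23%), a ligand of the TGF-β family, *Dppa4* (4.90%), a chromatin-associated factor, *Tdh* (4.27%), threonine dehydrogenase, *Foxa2* (3.48%), an endoderm factor, and *Prdm14* (3.14%), a regulator of primordial germ cells. *Dppa4* also had the largest promoter difference, 6.38% ± 5.67 in Space against 3.43% ± 0.931 in Ground GS cells (SD, n = 3), followed by *Gdf3* (6.51% ± 2.66 against 3.95% ± 1.02) and *Nodal* (3.08% ± 1.80 against 0.802% ± 0.264). Among these 3 promoters, the groups did not overlap at *Nodal* alone. Over the 5 lists, Space was higher without overlap at 3 of 35 promoters and lower at 2, where all genes had 5.68% and 3.86%. At distal sets it was higher at 4 of 41 and lower at 2, where all genes had 5.86% and 3.88%. The largest distal differences were those of *T*, which encodes Brachyury (63.4% ± 4.04 against 55.6% ± 5.80), *Klf2* (24.0% ± 1.16 against 30.9% ± 6.91), and *Lefty1* (35.6% ± 5.65 against 29.3% ± 2.07), with overlapping groups and an adjusted p of 0.955 each in the quasi-binomial test with limma.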

How the data were processed

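Genomic DNA of 3 Space and 3 Ground GS cell samples, grouped by their titles, was read by RRBS (Zymo-Seq RRBS Library Kit). The submitters' processing notes name Trim Galore, Bismark 0.24.2, methylKit, and mm39. Duplicate removal and strand merging are not given in the sources used here, and copies of 1 molecule would make levels look more precise than they are. The authors deposited 1 table that gives, per CpG site, a count of reads (coverage) and the percent of them methylated. Coverage times percent gave the methylated reads, within 0.000266 of a whole read. Both the 10 genes and the gene lists were chosen with earlier results of these data known, so no p-value was adjusted over a list alone.

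The main set was sites read 10 times or more in each of the 6 samples. Reads were summed per gene over promoter sites (up to 1000 bp) or distal sites, with at least 3 sites. Space and Ground GS cells were compared with a quasi-binomial test, with dispersion moderated by squeezeVar of limma 3.58.1 in R 4.3.3 and Benjamini-Hochberg adjustment over all features at a threshold of 0.05. Steps were tested with limma on log2 ratios, with 1 read added to each count. Single values were compared with two-sided exact permutation tests, whose smallest p is 0.10. The tests were tested on simulated data. Alternatives were coverage of 5 or 20 reads, promoters of 500 or 2000 bp, a distal limit of 10000 bp, limma, edgeR 4.0.16, percent differences, site means, a replicate block, leaving out each replicate, and, chosen after seeing the data, added reads scaled to depth and all reads. Named genes are the 10 genes, of the other pathway genes any called, the 5 highest promoters and the 3 largest differences per class, the 3 most similar promoters of *Pou5f1* and *Zfp42*, and the 5 sites with the smallest p. *Zic2*, *Mycn*, and the regions named within a gene were chosen after their values were seen. Python 3.11.15 and matplotlib 3.10.9 drew the figures.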

Additional observations from a re-analysis of the deposited data

How the results depend on the processing

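The adjusted p-values of Space against Ground GS cells stayed above the threshold under every alternative for promoters, distal sets, and steps, with 0 calls each. The site test called 0 sites, and 5 without Ground replicate 1. Steps were called in 7769 genes, in 4070 with at least 20 reads, and in 3727 with distal sites within 10000 bp, where fewer genes were tested, and in 7703 to 7722 when 1 replicate was left out. The mean promoter difference of -0.753 percentage points became -1.60 with promoters of 500 bp and 0.632 over all reads. These means do not cover the same genes. With promoters of 500 bp the *Nanog* site at 603 bp drops out. Over all reads *Esrrb* and *Dppa3* are added, and *Esrrb* enters with 10.2 percentage points from sites of at most 9 reads. Leaving out 1 replicate gave -1.18 to -0.455 at promoters and -2.53 to -0.135 at distal sites. The distal difference turned positive with 20 reads (0.516) and promoters of 2000 bp (0.518).

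Differences of single genes also changed sign, none of them called. At promoters this was *Sox2* without Space replicate 1 (-0.147), *Utf1* without Space replicate 1 (-0.300), *Tdgf1* with 5 reads (0.179), and *Pou5f1* without Space replicate 2 (0.0997) or Ground replicate 1 (1.02). Leaving out 1 replicate gave -0.147 to 1.51 for *Sox2*, -0.300 to 1.36 for *Utf1*, and -3.43 to 1.02 for *Pou5f1*. At distal sites it was *Utf1* with promoters of 2000 bp (4.77), *Tdgf1* with promoters of 500 bp (0.746) and without Space replicate 2 (2.85), with -5.88 to 2.85 over single replicates left out, and *Esrrb* with 20 reads (-0.680). Over all reads, an alternative chosen after seeing the data and not tested across genes, the sign changed for the *Pou5f1* promoter (1.28) and the distal sites of *Utf1* (0.577), *Esrrb* (-0.651), and *Lin28a* (5.33, with 1 site in the main set). The Space minus Ground difference of the step changed sign for *Utf1* with promoters of 2000 bp (3.73), *Tdgf1* with promoters of 500 bp (3.59) and without Space replicate 2 (4.30) or Ground replicate 3 (1.19), and *Zfp42* with distal sites within 10000 bp (1.71) and without Space replicate 2 (0.341), Space replicate 3 (0.101), or Ground replicate 1 (1.05), with -4.43 to 4.30 and -3.73 to 1.05 over single replicates left out for *Tdgf1* and *Zfp42*. The *Zfp42* step itself turned to -10.004. What caused these sign changes and moves was not tested.

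With the replicate number as a block, 0 promoters, 0 distal sets, 0 sites, and 0 differences of the step were called, and the mean differences stayed at -0.753 and -1.25. Samples with the same number deviated together only weakly at single sites (correlations of 0.0439, 0.0221, and 0.00994). Levels of single sites also vary by counting error, so this check could not decide whether the samples were paired. The submitters' sample descriptions carry consecutive numbers in Space and Ground GS cells with the same replicate number. The main tests did not pair the samples.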
